A study of Mus musculus with 60 samples.

Results

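The 7 genes described here, Ms4a4a, Ms4a4b, Ms4a4c, Ms4a6b, Ms4a6c, Ms4a6d and Ms4a7, belong to the Ms4a family of membrane proteins. They were taken by gene symbol from the 4 deposited expression tables, where they are 7 of 55413 gene rows, and the rule uses their names and no measured value. RNA was measured in microglia sorted from the cortex of mice that had a stroke as neonates, in 52 bulk libraries of 2000 lysed cells each. All groups, the contralateral ones included, carried the same genotype, Spp1-CreER:R26-Tdtomato, in which recombination in a cell that expresses Spp1 turns on a lasting tdTomato label. The label therefore rests on Spp1 promoter activity while the recombinase was active, and the labels do not say when that was.

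At day 7 after injury (postnatal day 13) there were 3 libraries each of contralateral cells, unlabelled cells (Tdt-) of the injured cortex and labelled cells (Tdt+) of the injured cortex. At day 28 (postnatal day 34) there were 4 of each, and 4 of each again at day 28 after lipopolysaccharide (LPS), a bacterial cell wall component that activates innate immune cells. The labels do not give the dose or the timing of LPS. The last table held a time course of Tdt+ cells alone, with 5 libraries each at days 3, 7 and 14 (postnatal days 9, 13 and 20) and 4 at day 28 (postnatal day 34). By the column names, the contralateral libraries used here hold unlabelled cells, which the labels leave unsaid.

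Ms4a proteins cross the membrane several times, with both ends in the cytoplasm, and many of them associate with receptors in the membrane of immune cells. In macrophages and microglia the family is known above all for Ms4a4a, which has been placed near the lectin receptor Dectin-1 (Clec7a) and near Trem2, the lipid receptor that signals through Tyrobp. In humans, inherited variation in the MS4A cluster has been linked to the level of soluble TREM2 and to the risk of Alzheimer's disease. Ms4a7 is known as a gene of border-associated macrophages of the brain and of macrophages that enter it, Ms4a4c as an interferon-inducible gene of mouse immune cells, and Ms4a4b as a gene of mouse T cells.

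All 21 Ms4a genes of the table lie in a single cluster on chromosome 19 (GRCm38.p6, chr19:10962289-11640851, 678.6 kb). The 7 members sit within 283.8 kb of it, at chr19:11321039-11604804, in the order Ms4a7, Ms4a4a, Ms4a4c, Ms4a4b, Ms4a6c, Ms4a6b and Ms4a6d. Promoter windows from RefSeq (GRCm38.p6), 250 bases before to 50 bases after a transcript start, were matched to 6 of the 7 members. Ms4a6d had no entry. The windows of the neighbours Ms4a4b and Ms4a4c are shown because they are the most alike pair, at 79% of 300 bases identical in a global alignment, while Ms4a4c was expressed and Ms4a4b was close to 0. Ms4a6b and Ms4a6c are shown as the next pair, at 65.7%, both expressed in every library. Ms4a4a and Ms4a7 (the start farther upstream of 2) are shown because each was well expressed in some groups and listed at 0 in others. All other pairs of windows ranged from 55% to 61.7%. Capitals mark the motifs that were found.
Ms4a4b (chr19:11443308-11443607, plus strand): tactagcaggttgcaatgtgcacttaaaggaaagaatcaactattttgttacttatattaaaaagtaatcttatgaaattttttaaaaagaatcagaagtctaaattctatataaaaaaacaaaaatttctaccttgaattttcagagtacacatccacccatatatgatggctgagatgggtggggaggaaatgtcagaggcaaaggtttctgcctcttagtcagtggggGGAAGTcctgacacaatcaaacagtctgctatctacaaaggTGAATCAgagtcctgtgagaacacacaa
Ms4a4c (chr19:11407411-11407710, plus strand): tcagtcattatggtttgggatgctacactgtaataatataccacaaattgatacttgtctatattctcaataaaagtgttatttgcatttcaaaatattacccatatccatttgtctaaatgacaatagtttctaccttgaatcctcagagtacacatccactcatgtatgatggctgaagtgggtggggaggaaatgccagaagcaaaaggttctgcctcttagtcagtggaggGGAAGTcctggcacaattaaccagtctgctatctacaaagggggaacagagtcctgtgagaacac
Ms4a6b (chr19:11518309-11518608, plus strand): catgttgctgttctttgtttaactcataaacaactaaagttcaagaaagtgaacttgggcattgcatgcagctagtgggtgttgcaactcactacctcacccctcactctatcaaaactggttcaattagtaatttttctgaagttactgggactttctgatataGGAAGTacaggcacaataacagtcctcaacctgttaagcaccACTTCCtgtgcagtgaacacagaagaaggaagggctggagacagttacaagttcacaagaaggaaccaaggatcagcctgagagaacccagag
Ms4a6c (chr19:11469118-11469417, plus strand): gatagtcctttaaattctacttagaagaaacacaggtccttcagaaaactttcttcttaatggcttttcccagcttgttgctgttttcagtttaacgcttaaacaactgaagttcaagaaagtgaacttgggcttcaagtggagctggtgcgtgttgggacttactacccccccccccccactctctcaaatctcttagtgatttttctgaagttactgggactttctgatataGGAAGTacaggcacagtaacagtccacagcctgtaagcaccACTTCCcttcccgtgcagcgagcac
Ms4a4a (chr19:11375238-11375537, plus strand): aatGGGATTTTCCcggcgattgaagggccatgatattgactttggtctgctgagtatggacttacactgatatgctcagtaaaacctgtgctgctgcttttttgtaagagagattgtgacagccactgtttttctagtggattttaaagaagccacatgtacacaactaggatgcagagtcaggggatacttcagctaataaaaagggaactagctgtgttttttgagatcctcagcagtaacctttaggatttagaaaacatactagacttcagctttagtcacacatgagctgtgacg
Ms4a7 (chr19:11336097-11336396, minus strand): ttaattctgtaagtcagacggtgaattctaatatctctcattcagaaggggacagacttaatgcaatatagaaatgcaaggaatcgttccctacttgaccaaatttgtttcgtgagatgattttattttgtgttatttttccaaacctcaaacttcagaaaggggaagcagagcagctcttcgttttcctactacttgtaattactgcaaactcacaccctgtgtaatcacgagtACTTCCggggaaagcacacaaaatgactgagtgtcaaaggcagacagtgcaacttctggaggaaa

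Motifs of 5 factors were searched on both strands. PU.1, the ETS factor that macrophages depend on, was searched as GGAAGT, which 23.8% of the 32851 promoter windows of the table hold. It was found in Ms4a4b, Ms4a4c, Ms4a6b, Ms4a6c and Ms4a7, with 2 matches each in Ms4a6b and Ms4a6c. In Ms4a4c and in Ms4a7 it lay from -15 to -10 of the start, on opposite strands, in Ms4a6c from -16 to -11 and in Ms4a4b from -19 to -14. The AP-1 letters TGANTCA (7.81% of windows) stood in Ms4a4b and in the second window of Ms4a7. Ms4a4a held no PU.1 letters but the NF-kB letters (GGGA, any base, TTTCC), from -247 to -238, which 0.411% of windows hold. The interferon-stimulated response element, searched as GAAA, any 2 bases, GAAA (3.44% of windows), and the C/EBP motif, searched as TTGCNNAA (10.8% of windows), were found in none of the 7 windows. These are matches of letters and do not show binding.

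Levels are given in TPM, an abundance of transcripts scaled to a fixed total and corrected for length, so genes can be compared on that scale. Expression in the cluster was confined, at levels over 10 TPM, to the members and to none of the other 14 Ms4a genes of chromosome 19. Among those 14, Ms4a8a reached 9.18 TPM in any library, Ms4a20 2.66, Ms4a19 2.48 and Ms4a14 1.67, and Ms4a4d, which lies between Ms4a6b and Ms4a6d, reached 0.78. Ms4a20 and Ms4a19 were named after their values were seen. Ms4a3, Ms4a10, Ms4a12, Ms4a13 and Ms4a18 were listed at 0 in all 52 libraries. The related Tmem176a and Tmem176b, on chromosome 6, were expressed throughout, with group means of 255 to 489 TPM and 472 to 920 TPM, and neither passed the test in any comparison.

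**Figure D1:**
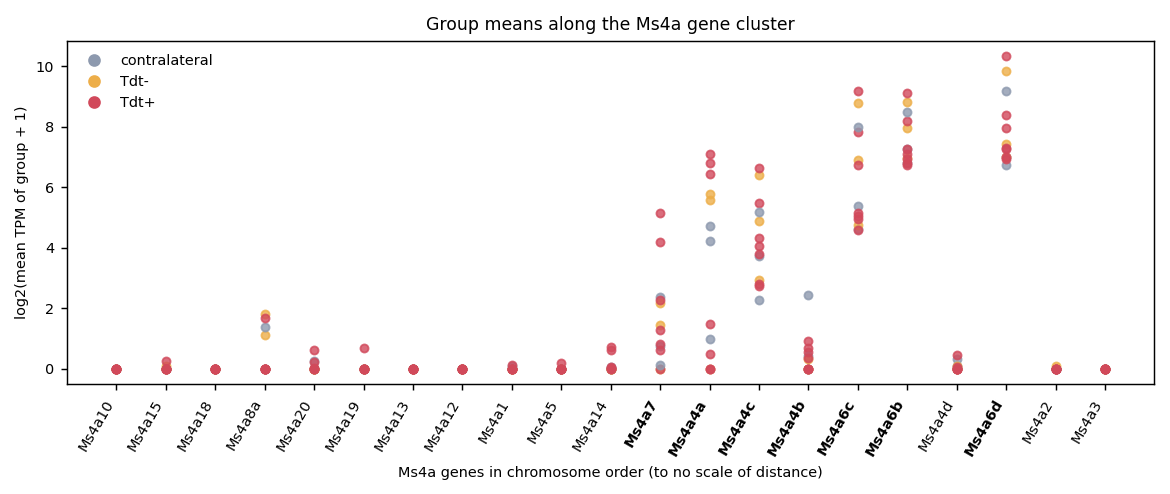
Mean TPM of each of 13 groups, as log2(mean + 1), for the 21 Ms4a genes in chromosome order, with the 7 members in bold. The members other than Ms4a4b reach well above the rest of the cluster. The highest group mean of Ms4a4b is 4.47 TPM, from a single library, beside 2.475 TPM for Ms4a8a. The highest point is Ms4a6d in Tdt+ cells after LPS, with a mean of 1291 TPM.

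Ms4a6d, Ms4a6b and Ms4a6c carried most of the family's RNA. Together they made up on average 97.9% of the summed TPM of the 7 genes in each of the 3 groups of the day 28 table, 91.9% to 95.2% in the groups after LPS, 78.4% in Tdt+ cells at day 3 of the time course and 80.6% in Tdt+ cells of the day 7 table. Ms4a4a held most of what remained in those last groups, at 13.1% and 12.9%. The summed level was 266 ± 10.5 TPM (SD, n = 4) in contralateral cells at day 28 and 2641 ± 424 TPM (n = 4) in Tdt+ cells after LPS. These extremes come from separate tables and their difference was not tested. RSEM divides reads that match more than 1 gene by estimate, so the split among the close paralogs Ms4a6b, Ms4a6c and Ms4a6d, and between Ms4a4b and Ms4a4c, is less certain than their sum.

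**Figure D2:**
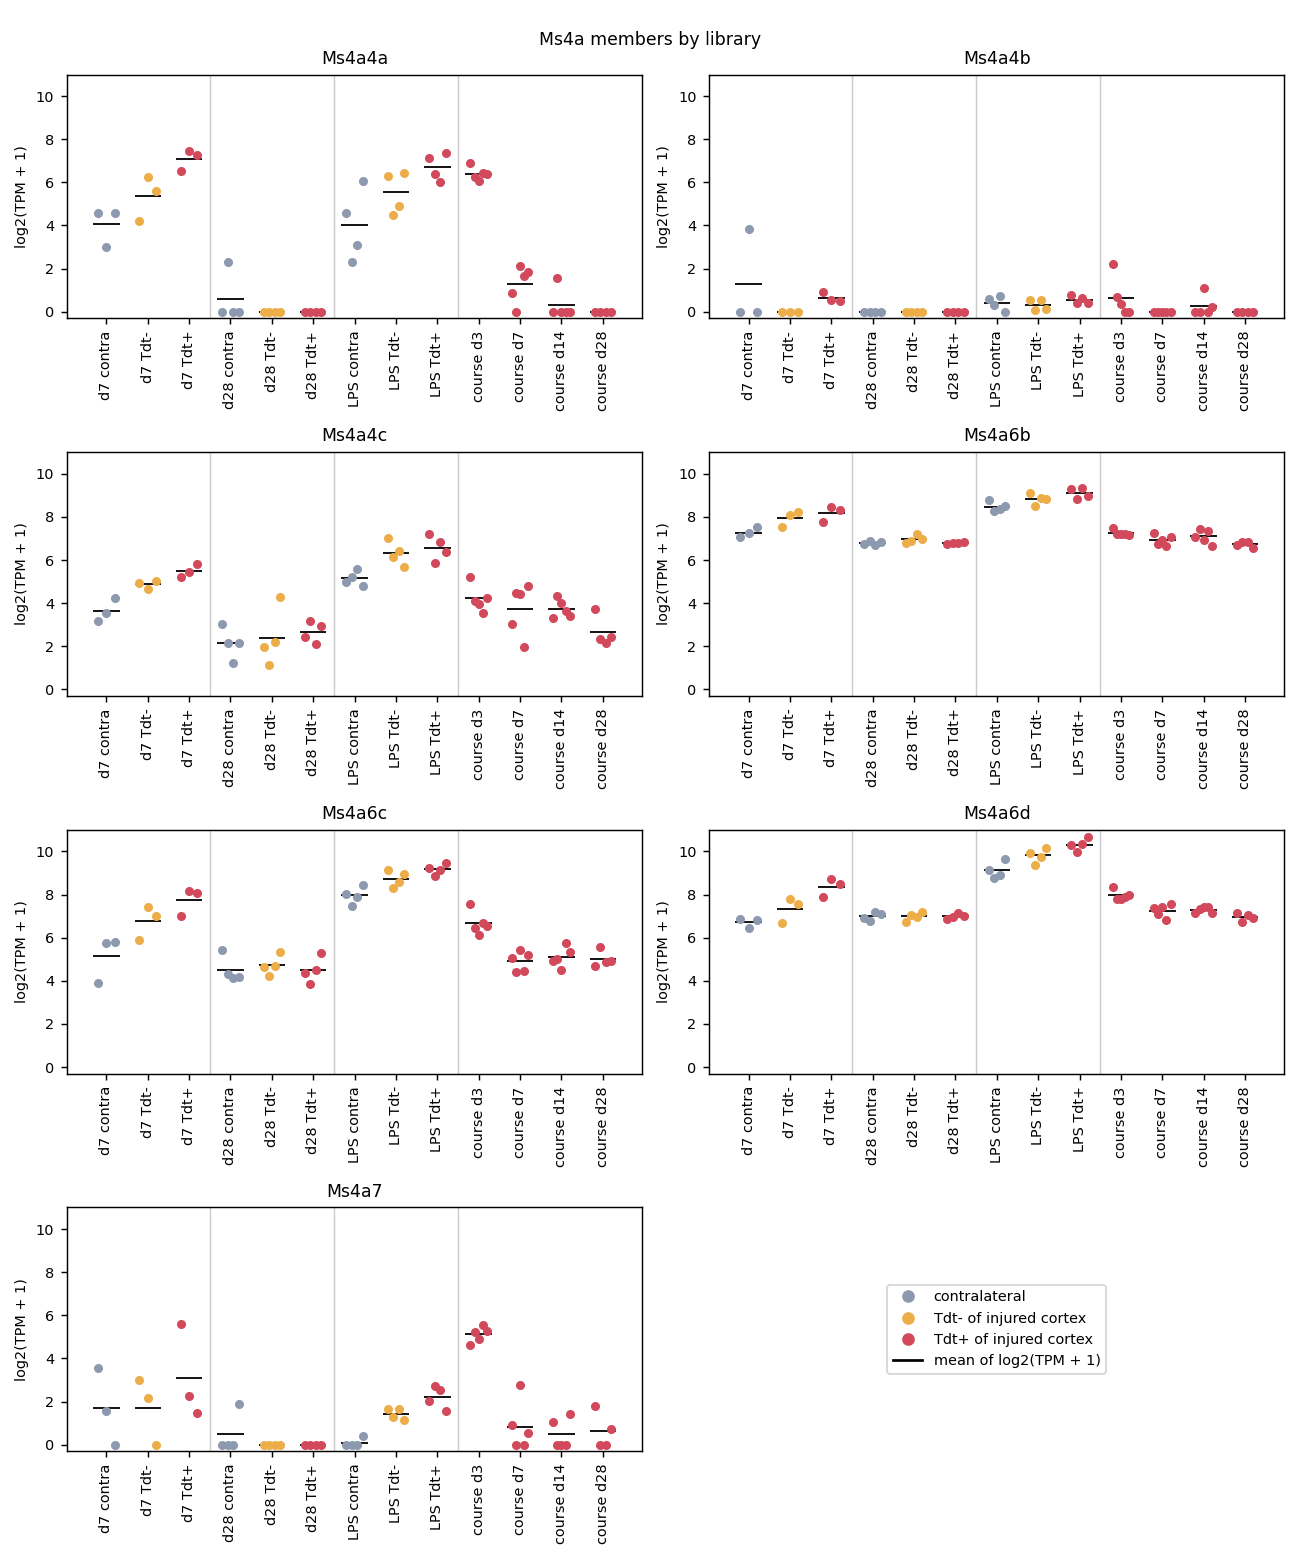
Each of the 7 members in every library, as log2(TPM + 1), with points for libraries and a line for the mean of each group. Ms4a6b, Ms4a6c and Ms4a6d are detected in all 52 libraries, and Ms4a4a and Ms4a7 are high in a few groups and near 0 in the others.

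Some facts of the libraries bear on these levels. TPM keeps no read depth, so depth is unknown here and no counting interval is given. Between 11544 and 14093 genes had at least 1 TPM in a library. The summed TPM of 10 microglia markers was at least 17216 in every library, and T and NK cell markers summed to at most 5.89 TPM. The 4 B cell markers summed to 29.2 to 129 TPM. Of them, 1 was expressed enough to be tested at day 7, at day 28 and after LPS, and 2 in the time course. Neutrophil markers summed to 171.88 TPM in Tdt- replicate 3 of day 7 and to at most 18 TPM in the other libraries. The labels do not say that libraries came from separate animals, so p-values measure the spread between these libraries. In bulk RNA, a change in RNA per cell and a change in the share of cells that express a gene cannot be told apart.

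Tdt+ cells labelled day 7 are in 2 tables, and they stood apart. Ms4a4a was at 91.9 to 172 TPM in the day 7 table and at 0 to 3.32 TPM in the day 7 libraries of the time course, and Ms4a6c was at 126 to 286 TPM and at 20.2 to 41.5 TPM. Spp1 itself, which encodes osteopontin and drives the label, was at 534 to 922 TPM in the first and at 0 to 2.05 TPM in the second. Each of these ranges is separate from the other. The labels give both groups the same age and genotype, and the difference between the tables was not tested.

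At day 7, the question was how labelled and unlabelled cells of the injured cortex differ from contralateral cells. Ms4a4a, Ms4a4c, Ms4a6b, Ms4a6c and Ms4a6d were above every contralateral library in every Tdt+ library. None of the 6 members that could be tested passed, at an adjusted p under 0.05 by limma with Benjamini-Hochberg adjustment over all 12637 genes tested, where 0.0712% of genes were called, 9 in all. Some members did pass with the replicate number as a block, a fit given at the end. The numbers do not meet the pairing rule at day 7, so that fit is not the main one. For complete separation with higher Tdt+ values, the count was 5 of 6 members beside 5.7% of all genes. The median log2 difference of the 6 was 1.73, beside -0.01 over all genes tested. Marker sums of other lists also differed: 10 microglia markers summed to 31185 to 34137 TPM in Tdt+ and 39853 to 46599 TPM in contralateral cells, with no overlap, a median log2 difference of -0.40 and none of the 10 past the test. The 8 monocyte markers summed to 22.5 to 66.2 TPM in Tdt+ and 5.13 to 23.98 TPM in contralateral cells, which overlapped. Their part in the members' differences was not tested.

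Ms4a4a was at 23.0, 7.02 and 23.1 TPM in contralateral cells, at 17.4, 76.2 and 48.2 TPM in Tdt- cells and at 91.9, 172 and 151 TPM in Tdt+ cells. The Tdt+ libraries were above all others, while the Tdt- and contralateral ranges overlapped. On the log2(TPM + 1) scale, the difference of Tdt+ from contralateral was 3.01 ± 0.54 (SE; adjusted p = 0.0788, limma).

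Ms4a6d, which has been tied to inflammasome control in mouse macrophages, was at 117, 87.0 and 114 TPM in contralateral cells, at 102, 221 and 188 TPM in Tdt- cells and at 238, 421 and 357 TPM in Tdt+ cells. Again Tdt+ libraries were above all others and the other groups overlapped. The log2 difference of Tdt+ from contralateral was 1.64 ± 0.29 (adjusted p = 0.0755, limma). Without the 3 libraries numbered 1 it was 1.95 (adjusted p = 0.038).

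Ms4a6c, a myeloid member of little-known function, was at 14.03, 52.5 and 54.6 TPM in contralateral cells, at 58.8, 173 and 127 TPM in Tdt- cells and at 126, 286 and 272 TPM in Tdt+ cells. Here both groups of the injured cortex were above the contralateral group, and they overlapped each other. The log2 difference of Tdt+ from contralateral was 2.60 ± 0.53 (adjusted p = 0.152, limma), and without the 3 libraries numbered 1 it was 2.36 (adjusted p = 0.0283).

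Ms4a4c was at 8.03, 10.6 and 18.0 TPM in contralateral cells, at 29.2, 24.4 and 31.8 TPM in Tdt- cells and at 35.7, 42.0 and 54.8 TPM in Tdt+ cells. It was the only member whose 3 groups did not overlap at all at day 7. The log2 difference of Tdt+ from contralateral was 1.82 ± 0.31 (adjusted p = 0.0755, limma), and it passed without contralateral replicate 3, at 2.12 (adjusted p = 0.03).

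Ms4a6b, with the smallest difference of these 5, was at 132, 151 and 182 TPM in contralateral cells, at 187, 267 and 294 TPM in Tdt- cells and at 215, 349 and 322 TPM in Tdt+ cells. Its log2 difference of Tdt+ from contralateral was 0.91 ± 0.22 (adjusted p = 0.278, limma). Without Tdt- replicate 1, which enters the shared estimate of the spread, Ms4a4a (adjusted p = 0.0309) and Ms4a6d (adjusted p = 0.0181) passed in this comparison.

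Ms4a7 had its highest mean in Tdt+ cells, as did the members above, but with a wide spread. It was at 10.7, 1.91 and 0 TPM in contralateral cells, at 6.99, 3.46 and 0 TPM in Tdt- cells and at 47.0, 3.78 and 1.78 TPM in Tdt+ cells. The groups overlapped, and in each of them the library numbered 1 was highest. The Tdt+ library was the highest of its number in each case, though the numbers do not pair libraries at day 7 by the rule given below. The log2 difference of Tdt+ from contralateral was 1.41 ± 1.17 (adjusted p = 0.873, limma). Mrc1, which encodes the mannose receptor of border-associated macrophages, was likewise highest in the libraries numbered 1, at 102, 159 and 253 TPM in contralateral, Tdt- and Tdt+ cells beside 19.3 to 77.7 TPM in the others. Pf4, another marker of those cells, was at 48.2, 10.99 and 10.3 TPM in the libraries numbered 1 and at 0 to 50.1 TPM in the others. The 9 markers of that cell type summed to 470 to 602 TPM in contralateral, 553 to 749 TPM in Tdt- and 604 to 863 TPM in Tdt+ cells, with Cd163 and Lyve1 listed at 0 in all 3 Tdt+ libraries. Their part in the Ms4a7 values was not tested. Of 8 monocyte markers 3 were tested, and Fn1, the fibronectin gene, alone passed, at 43.5 ± 23.2 TPM in Tdt+ and 0.58 ± 0.57 TPM in contralateral cells (n = 3 each; log2 difference 4.70 ± 0.61, adjusted p = 0.0197, limma).

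Between Tdt+ and Tdt- cells at day 7, 3 of the 6 tested members were separate and higher, Ms4a4a, Ms4a4c and Ms4a6d, beside 4.05% of all genes. None passed the test (0.0158% of genes called, 2 in all), and the log2 differences ran from 0.24 ± 0.22 for Ms4a6b to 1.71 ± 0.54 for Ms4a4a (adjusted p = 0.944 and 0.835, limma). Between Tdt- and contralateral cells, 3 of 6 were separate and higher, Ms4a4c, Ms4a6b and Ms4a6c, beside 6.16% of all genes. None passed (0.00791% of genes called, 1 in all), and the largest log2 difference was 1.63 ± 0.53 for Ms4a6c (adjusted p = 0.856, limma). At an unadjusted p under 0.05 these 2 comparisons held 662 and 718 genes. These comparisons and that of Tdt+ with contralateral cells share libraries.

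Ms4a4b was listed at 0 in 5 of the 9 day 7 libraries, reached 13.4 TPM in contralateral replicate 2 and was at 0.42 to 0.90 TPM in the Tdt+ libraries. It passed the filter on low values in no table and was therefore not tested. Across all 52 libraries its next highest value was 3.68 TPM, in day 3 replicate 1 of the time course.

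**Figure D3:**
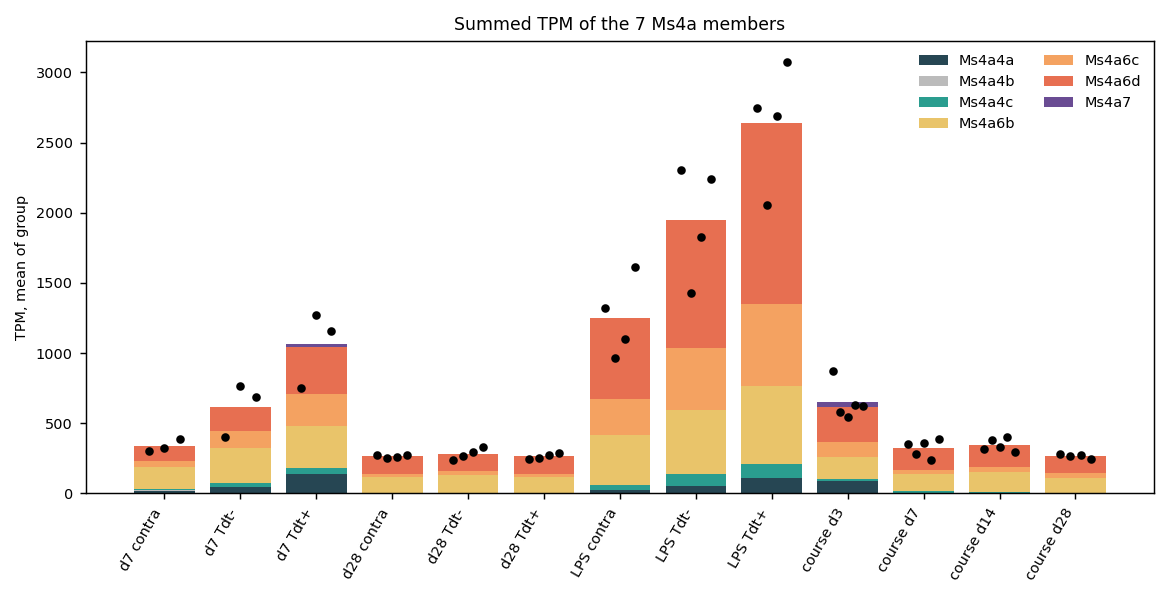
Bars are the group means of TPM, stacked by member, and points are the summed TPM of the 7 members in each library. The sum is 340 ± 45.5, 618 ± 191 and 1063 ± 273 TPM (SD, n = 3) in contralateral, Tdt- and Tdt+ cells at day 7, and 1251 ± 281, 1951 ± 408 and 2641 ± 424 TPM (SD, n = 4) in the same groups after LPS.

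At day 28 without LPS, the ranges of the 3 groups overlapped for each member that was expressed. Ms4a6d was at 109 to 143 TPM in contralateral, 104 to 147 TPM in Tdt- and 115 to 142 TPM in Tdt+ cells. Ms4a6b was at 101 to 118, 111 to 146 and 106 to 114 TPM in the same order, and Ms4a6c was at 16.7 to 42.5, 17.7 to 39.3 and 13.3 to 38.2 TPM. Ms4a4c was at 1.33 to 7.17, 1.21 to 18.7 and 3.31 to 8.15 TPM. The spread within a group, as in Tdt- replicate 4 at 18.7 TPM of Ms4a4c, was as wide as any gap between groups.

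Ms4a4a was listed at 0 in 11 of the 12 day 28 libraries and at 3.92 TPM in contralateral replicate 2. Ms4a7 was listed at 0 in all but contralateral replicate 4, which had 2.72 TPM, and Ms4a4b was at 0 throughout. That left 4 testable members, and none passed in any of the 3 comparisons (0% of 12710 genes called in each). At an unadjusted p under 0.05 there were 585 genes for Tdt+ against contralateral, 473 for Tdt+ against Tdt- and 575 for Tdt- against contralateral. The log2 differences of Tdt+ from contralateral were 0.00 ± 0.12 for Ms4a6b, -0.02 ± 0.34 for Ms4a6c, 0.01 ± 0.14 for Ms4a6d and 0.52 ± 0.57 for Ms4a4c (adjusted p = 0.991 to 1, limma).

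After LPS, the question was how labelled and unlabelled cells of the injured cortex differ from contralateral cells and from each other. Tdt+ and contralateral cells differ in label and in side, and their comparison cannot tell these apart. Tdt+ and Tdt- cells, both of the injured cortex, are compared further below. Ms4a4c, Ms4a6c and Ms4a6d were higher in Tdt+ than in contralateral cells, 3 of the 5 members that were expressed in contralateral cells too, where 1.35% of the 13397 genes tested were called and 0.896% were called higher. In 4 of these 5, Ms4a4a being the exception, every Tdt+ library was above every contralateral library, beside 2.3% of all genes. Their median log2 difference was 1.22, beside -0.12 over all genes tested. Ms4a7 was called higher as well, but it passed the filter on low values only through the groups of the injured cortex, so it is left out of these counts and its values are a description.

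Ms4a6d was at 568, 439, 486 and 813 TPM in contralateral cells, at 983, 659, 863 and 1158 TPM in Tdt- cells and at 1240, 999, 1307 and 1617 TPM in Tdt+ cells. Every Tdt+ library was above every contralateral one, and the Tdt- range overlapped both. The log2 difference of Tdt+ from contralateral was 1.18 ± 0.22 (adjusted p = 0.0166, limma).

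Ms4a6c was at 263, 177, 236 and 342 TPM in contralateral cells, at 564, 311, 385 and 494 TPM in Tdt- cells and at 599, 458, 561 and 714 TPM in Tdt+ cells. It was arranged like Ms4a6d, with the Tdt- range overlapping both others. The log2 difference was 1.22 ± 0.22 (adjusted p = 0.0164, limma). Both Ms4a6c and Ms4a6d missed the threshold without Tdt+ replicate 1, 3 or 4 or without contralateral replicate 2 or 3, with adjusted p from 0.0526 to 0.0743.

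Ms4a4c was at 30.8, 35.6, 47.2 and 26.9 TPM in contralateral cells, at 127, 69.4, 85.8 and 50.8 TPM in Tdt- cells and at 148, 57.0, 111 and 82.1 TPM in Tdt+ cells. Both groups of the injured cortex were wholly above the contralateral group. The log2 difference of Tdt+ from contralateral was 1.42 ± 0.32 (adjusted p = 0.0472, limma). This call was lost in 9 of the 12 fits without 1 library, with adjusted p from 0.0554 to 0.153, and in 4 of 9 other alternatives.

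Ms4a7 was at 0, 0, 0 and 0.32 TPM in contralateral cells, at 2.20, 1.41, 2.12 and 1.23 TPM in Tdt- cells and at 3.11, 5.70, 4.76 and 1.97 TPM in Tdt+ cells. Contralateral libraries were below all others, at levels that are low in every group. The difference on the log2(TPM + 1) scale was 2.12 ± 0.31 (adjusted p = 0.00367, limma). That p is no support, since Ms4a7 could be tested only because it was high in the injured cortex. Of 9 border-associated macrophage markers, 6 were tested here, with a median log2 difference of -0.05. Siglec1 alone passed, where 0.896% of all genes were called higher. It was at 34.8 ± 9.57 TPM in Tdt+ and 14.41 ± 1.1 TPM in contralateral cells (n = 4 each). Its log2 difference was 1.17 ± 0.20 (adjusted p = 0.0115, limma). The 9 markers summed to 482 to 749 TPM in contralateral and 408 to 711 TPM in Tdt+ cells, Mrc1 was at 5.14 to 19.5 and 1.18 to 12.4 TPM, and Pf4 was listed at 0 in all 8 of these libraries. Monocyte markers summed to 43.9 to 101 TPM in contralateral and 77.6 to 210 TPM in Tdt+ cells, and none of the 4 tested passed. Of 10 microglia markers, 2 were lower in Tdt+ cells, where 0.455% of genes were called lower, P2ry12 (-1.07 ± 0.19, adjusted p = 0.0135) and Fcrls (-0.84 ± 0.19, adjusted p = 0.0472). The part of other cells in these differences was not tested.

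Ms4a4a was at 23.3, 3.96, 7.48 and 66.7 TPM in contralateral cells, at 78.2, 21.5, 29.3 and 85.2 TPM in Tdt- cells and at 138, 82.9, 62.9 and 161 TPM in Tdt+ cells. All 3 groups overlapped, Tdt+ with contralateral cells through contralateral replicate 4 alone. Its log2 difference of 2.69 ± 0.71 did not pass (adjusted p = 0.103, limma), and without contralateral replicate 4 it was 3.38 (adjusted p = 0.0141). Ms4a6b was at 433, 312, 327 and 364 TPM in contralateral and at 619, 456, 640 and 495 TPM in Tdt+ cells, with no overlap. Its log2 difference of 0.62 ± 0.16 did not pass (adjusted p = 0.0998, limma).

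Libraries with the same replicate number deviated together after LPS, so a fit with the number as a block was also made for the comparisons of Tdt+ cells. With the block, 6 of 6 members were higher in Tdt+ than in contralateral cells, where 2.41% of all genes were called higher and the limit on Ms4a7 holds too, with adjusted p = 0.000619 for Ms4a4a, 0.00164 for Ms4a6b, 0.00265 for Ms4a4c, 0.0024 for Ms4a7, 3.53e-05 for Ms4a6c and 1.37e-05 for Ms4a6d. Within each of the 4 numbers, the Tdt+ library was above the contralateral one for all 6, beside 7.57% of all genes tested. The numbers that were high for Ms4a4a were 1 and 4, in each of the 3 groups. In libraries numbered 4, Ms4a8a was at 5.69 to 9.18 TPM, and it was at 0 to 1.23 TPM in the others.

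**Figure D4:**
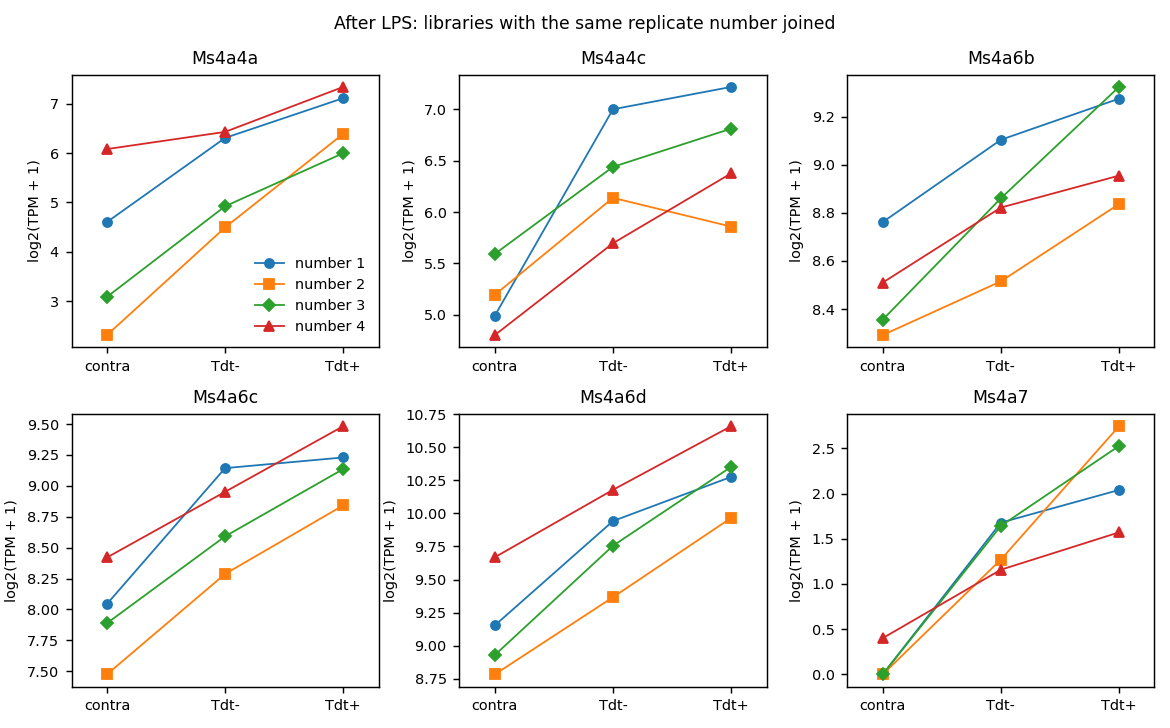
The 6 expressed members after LPS, as log2(TPM + 1), with libraries of the same replicate number joined across contralateral, Tdt- and Tdt+ cells. Each line ends higher in Tdt+ cells than it starts in contralateral cells, and only Ms4a4c of number 2 falls between Tdt- and Tdt+ cells, from 69.4 to 57.0 TPM.

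Between Tdt+ and Tdt- cells of the injured cortex after LPS, no member passed (0% of genes called), while 618 genes had an unadjusted p under 0.05, and the log2 differences ran from 0.25 ± 0.32 for Ms4a4c to 1.17 ± 0.71 for Ms4a4a (adjusted p = 1, limma). In every member the groups overlapped. The Tdt+ library was above the Tdt- library of the same number in 4 of 4 numbers for 5 of the 6 members, beside 7.61% of all genes, and in 3 of 4 for Ms4a4c. With the replicate number as a block, Ms4a6d passed in this comparison, at 0.50 (adjusted p = 0.0282, limma), where 0.299% of genes were called higher. Between Tdt- and contralateral cells no member passed (0.0149% of genes called), although Ms4a4c was separate and higher, beside 1.15% of all genes. Ms4a7 was separate and higher too, but it could be tested only because it was high in the injured cortex, so that is a description. The log2 differences of Ms4a4c and Ms4a7 were 1.17 ± 0.32 and 1.34 ± 0.31 (adjusted p = 0.488 and 0.282, limma). The Tdt- library was above the contralateral library of the same number in 4 of 4 numbers for all 6 tested members, beside 6% of all genes. The limit on Ms4a7 holds there too, and same-numbered libraries of these 2 groups did not all deviate together by the rule used.

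**Figure D5:**
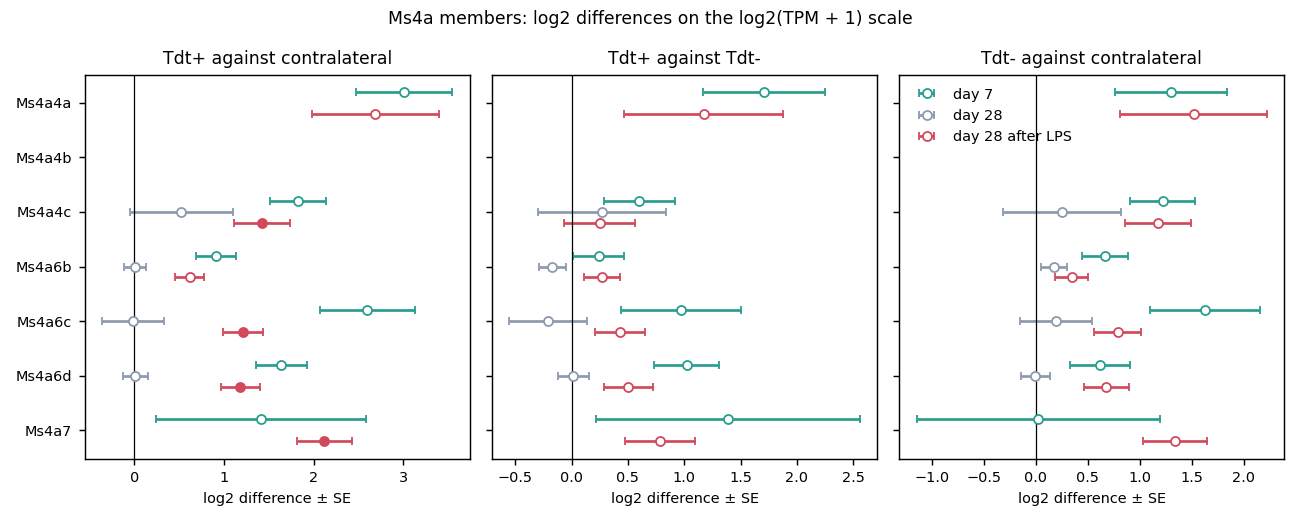
Log2 differences with SE on the log2(TPM + 1) scale in the 3 comparisons of groups, by table; filled points passed an adjusted p under 0.05. Filled points are all in Tdt+ against contralateral cells after LPS, where 0.896% of all genes were called higher. They belong to Ms4a4c, Ms4a6c and Ms4a6d, and to Ms4a7 as a description. Ms4a7 could be tested there only because it was high in the injured cortex. The day 28 points lie near 0.

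The difference between the LPS and the day 28 tables was tested as an interaction, in which a shift common to a whole table cancels. For Tdt+ against contralateral cells, Ms4a6d had a larger difference after LPS (1.17 ± 0.26, adjusted p = 0.0313, limma), where 0.555% of the 14602 genes tested were called and 0.418% were called higher. Ms4a7 was called as well (2.59 ± 0.50, adjusted p = 0.0111), but it was listed at 0 in 11 of the 12 day 28 libraries and entered the test only through the groups of the injured cortex after LPS, so its value is a description. Ms4a4a likewise entered only through libraries after LPS. Ms4a6d lost its call in 12 of 24 fits without 1 library, with adjusted p from 0.0551 to 0.103. Ms4a4a had the largest estimate, 3.27 ± 0.88, and did not pass (adjusted p = 0.119), nor did Ms4a6c (1.23 ± 0.43, adjusted p = 0.351), Ms4a6b (0.61 ± 0.19, adjusted p = 0.246) or Ms4a4c (0.90 ± 0.68, adjusted p = 0.843). No member passed in the interaction for Tdt+ against Tdt- cells (0% of genes called, 579 at an unadjusted p under 0.05) or for Tdt- against contralateral cells (0.0205% of genes called).

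In the time course, Tdt+ cells at day 3 stood apart from later days of the same course. Time after injury and age rise together in it, and it holds no contralateral libraries, so their parts cannot be told apart. The other Tdt+ libraries of day 7, compared with contralateral cells above, were not below day 3. Ms4a4a was at 91.9 to 172 TPM in them and at 64.9 to 117 TPM at day 3, and Ms4a6d at 238 to 421 and 220 to 328 TPM. The falls below hold within the course only. From day 3 to day 7, 4 of the 6 tested members fell, Ms4a4a, Ms4a6c, Ms4a6d and Ms4a7, and none rose, where 2198 of the 15316 genes tested were called, 9.93% of all as higher and 4.42% as lower. The same 4 were separate between the days, beside 4.17% of all genes. The median log2 difference was -1.24 over the 6 members and 0.18 over all genes tested.

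Ms4a4a was at 117, 75.1, 64.9, 86.2 and 84.0 TPM at day 3 and at 0.81, 0, 3.32, 2.14 and 2.55 TPM at day 7. At day 14 it was at 1.97 TPM in replicate 2 and listed at 0 in the other 4 libraries, and at day 28 it was listed at 0 in all 4. Its fall from day 3 to day 7 was -5.12 ± 0.39 on the log2(TPM + 1) scale (adjusted p = 1.56e-08, limma).

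Ms4a7 was at 23.4, 36.0, 29.3, 46.1 and 37.7 TPM at day 3 and at 0.86, 0, 5.82, 0 and 0.45 TPM at day 7, and stayed at or under 2.43 TPM on later days. The fall to day 7 was -4.27 ± 0.49 (adjusted p = 3.34e-06, limma). After day 3, Ms4a4a and Ms4a7 reached 1 TPM in just enough libraries for the filter on low values. Their later values lie near the floor, and the counts and medians over tested members are kept as descriptions.

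Ms4a6c was at 187, 86.6, 69.5, 101 and 92.1 TPM at day 3 and at 32.6, 20.2, 41.5, 21.1 and 35.5 TPM at day 7, a fall of -1.76 ± 0.27 (adjusted p = 0.000105, limma). Ms4a6d was at 328, 220, 221, 236 and 250 TPM at day 3 and at 162, 136, 170, 113 and 187 TPM at day 7, a fall of -0.71 ± 0.14 (adjusted p = 0.00129). Day 3 was wholly above day 7 for both. Ms4a6b, at 143 to 180 and 98.1 to 151 TPM, and Ms4a4c, at 10.7 to 35.8 and 2.91 to 26.4 TPM, overlapped between these days and did not pass (log2 differences -0.34 ± 0.14 and -0.48 ± 0.46, adjusted p = 0.121 and 0.549, limma).

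After day 7 no member passed from one day to the next. From day 7 to day 14, 0 of 6 passed (6% of genes called), and from day 14 to day 28, 0 of 6 passed (6.27% of genes called). The log2 differences over the first interval ran from -0.98 ± 0.39 for Ms4a4a (adjusted p = 0.156, limma) to 0.19 ± 0.27 for Ms4a6c (adjusted p = 0.775). Without day 7 replicate 2 or without day 14 replicate 2, Ms4a4a passed as lower at day 14 (adjusted p = 0.0395 and 0.045). Over the second interval they ran from -1.08 ± 0.48 for Ms4a4c (adjusted p = 0.194) to 0.13 ± 0.52 for Ms4a7 (adjusted p = 0.915). Ms4a6d alone was separate between days 14 and 28 and lower at day 28, 1 of 6 beside 2.55% of all genes.

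From day 3 to day 28, 6 of 6 tested members fell, where 43.6% of genes were called and 7.97% were called lower. In 5 of 6 every day 28 library was below every day 3 library, beside 6.63% of all genes, Ms4a4c being the exception. The median difference of all genes tested was 0.56, so each member fell by more relative to that median. Ms4a6b, at 92.4 to 114 TPM at day 28, fell by 0.53 ± 0.15 on the log2 scale (adjusted p = 0.00789, limma), or -1.09 relative to the median gene. Ms4a6d, at 104 to 138 TPM, fell by 1.01 ± 0.15 (adjusted p = 1.51e-05), Ms4a6c, at 25.1 to 47.0 TPM, by 1.65 ± 0.28 (adjusted p = 0.000108), and Ms4a4c, at 3.46 to 12.3 TPM, by 1.56 ± 0.48 (adjusted p = 0.0132). Ms4a7 fell by 4.49 ± 0.52 (adjusted p = 7.94e-07). For Ms4a4a the adjusted p was 3.7e-10, and no fold is given because every day 28 library was listed at 0.

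Markers of border-associated macrophages fell as well. All 7 that were tested fell from day 3 to day 7, where 4.42% of all genes were called lower, with a median log2 difference of -3.03. The sum of the list was 943 to 1171 TPM at day 3 and 314 to 485 TPM at day 7. Mrc1 fell by 2.04 ± 0.24 (adjusted p = 4.06e-06, limma), and Folr2, a folate receptor of those macrophages, had a difference of -4.40 ± 0.49 (adjusted p = 2.09e-06), while the further markers Cd163 and Lyve1 had means of 0.29 and 1.98 TPM at day 3. Of 10 microglia markers, 9 rose, where 9.93% of all genes were called higher, with sums of 17805 to 21626 TPM at day 3 and 31387 to 36315 TPM at day 7. Of 5 monocyte markers tested, 1 fell. No T, NK or B cell marker that was tested passed, and no neutrophil marker was tested. Monocyte markers summed to 418 TPM in day 3 replicate 1, where Ms4a4a, Ms4a4c, Ms4a6b, Ms4a6c and Ms4a6d were also highest of the day, and all 4 falls to day 7 passed without that library. The part of these cells in the falls was otherwise not tested.

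Known partners of the family were taken as a list of 10 genes. Trem2 had a mean of 1345 ± 81 TPM (SD, n = 5) at day 7 of the time course and did not pass from day 3 to day 7. It rose from day 7 to day 14 by 0.24 ± 0.07 (adjusted p = 0.0457, limma). Over that interval 4.46% of all genes were called higher, and the median difference of all genes tested was 0.14. From day 3 to day 7, 4 of the 9 tested fell and 1 rose, where 4.42% of all genes were called lower and 9.93% higher. Clec7a, the Dectin-1 gene, fell from 135 ± 27.5 to 21.5 ± 11.9 TPM (log2 -2.72 ± 0.28, adjusted p = 9.54e-07), Tyrobp fell by 0.49 ± 0.09 (adjusted p = 0.000521), and Grn and Fcer1g fell as well. Nlrp3, the inflammasome sensor, rose by 1.03 ± 0.18 (adjusted p = 0.00048). From day 3 to day 28, 4 of 9 fell and 2 rose, where 7.97% of all genes were called lower and 35.6% higher. The rises were Adam10 (1.27 ± 0.26, adjusted p = 0.000566, limma) and Adam17 (0.84 ± 0.23, adjusted p = 0.00651), membrane proteases that shed surface proteins such as Trem2. The median difference of all genes tested was 0.56, and rises were no more frequent in this list than over all genes. None of the 8 tested passed in any comparison at day 7, at day 28 or after LPS. Vsig4, a partner of Ms4a6d in mouse macrophages, was listed at 0 in every group but day 3 of the time course, where its mean was 0.056 TPM.

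Ms4a4c was set beside 20 genes of the type I interferon response, since both are induced by interferon. From day 7 to day 14, 16 of the 20 rose and none fell, where 4.46% of all genes rose. From day 14 to day 28 all 20 fell, where 2.21% of all genes fell. Ms4a4c had log2 differences of 0.01 ± 0.46 and -1.08 ± 0.48 over the same intervals and passed in neither (adjusted p = 0.998 and 0.194, limma). After LPS, 1 of the 20, Rsad2, was higher in Tdt+ than in contralateral cells (2.16 ± 0.45, adjusted p = 0.034, limma). In that comparison 0.896% of all genes were called higher. Ms4a4c was among them, a call that most fits without 1 library lost. A link of Ms4a4c with Rsad2 was not tested.

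Across the 52 libraries, with the mean of each table removed, the members fell into looser and tighter pairs. Pearson's r of log2(TPM + 1) was 0.80 for Ms4a6b with Ms4a6d and for Ms4a6c with Ms4a6d, 0.77 for Ms4a6b with Ms4a6c, and 0.75 for Ms4a4a with Ms4a6d and with Ms4a7. With the mean of each group removed instead, these were 0.56, 0.48, 0.56, 0.58 and -0.10, in that order. The likeness of Ms4a4a and Ms4a7 was one of group means and not of libraries within a group. Libraries share tables, groups and composition, so these are descriptions with no p.

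By the same measure, the genes most like each member were named among 8945 with a mean of at least 5 TPM. With the mean of each group removed instead, r of the genes named below was lower for each but Capn15. For Ms4a4a they were Pla2g7 (r = 0.88), Cd38 (0.86), F13a1 (0.86), Pgk1 (0.85) and Plin2 (0.85), and with group means removed r was 0.58, 0.37, 0.65, 0.10 and 0.38 in that order. For the expressed members that follow, r with group means removed ran from 0.35 to 0.59. For Ms4a6d they were Fn1 (0.80), Cd38 (0.80), Fcgr4 (0.77), Spp1 (0.76) and Fth1 (0.76), and for Ms4a6c Fcgr4 (0.78), Apoc2 (0.78), Pla2g7 (0.76), Fn1 (0.76) and Serp1 (0.74). Ms4a6b had Fn1 (0.71), Cd72 (0.70), Cybb (0.68), Trps1 (0.66) and Fcgr4 (0.65), and Ms4a4c had Cybb (0.67), Cd72 (0.66), Cd52 (0.63), Ccl12 (0.61) and Ifi211 (0.59). For Ms4a7 they were Gpnmb (0.84), Lyz2 (0.82), Folr2 (0.79), Sem1 (0.79) and Hpse (0.78). Ms4a4b, near 0 in most libraries, had no gene above Capn15 (0.51).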

How the data were processed

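The members, gene lists and tests were chosen with earlier results of these data known. Of 60 samples listed, 52 bulk libraries were used; the 6 ATAC samples and the 2 pools for single-cell work were left out. The authors deposited 4 tables of TPM; per the submitters' processing notes, the tools included cutadapt 2.10, STAR 2.7.5c and RSEM 1.3.3, and the build was GRCm38. TPM is scaled to a fixed total, so depth is unknown and one abundant gene lowers all others. The design allowed for counts; since the tables hold TPM, limma 3.58.1 in R 4.3.3 was used on log2(TPM + 1), with an intensity trend, all groups of a table in the same fit, and a filter that kept a gene with at least 1 TPM in a number of libraries equal to the size of the smallest group. This scale understates differences of low genes. Tests were two-sided, with Benjamini-Hochberg adjustment across the genes that passed the filter and a threshold of 0.05. The fit was tested on simulated data with independent libraries. That setting leaves out the shared deviations of same-numbered libraries after LPS, so it cannot speak to them.

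There were 7 columns, 3 in the day 7 and 4 in the day 28 table, that matched no listed sample, and they were left out. Their names give Tdt+ cells of the contralateral side. Each contralateral sample was matched to the Tdt- column of its number, which is a choice at days 7 and 28, made because after LPS the contralateral columns are Tdt- alone.

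Replicate numbers were taken to pair libraries where deviations of same-numbered libraries from their group means correlated above 0.1 in every pair. This held after LPS for Tdt+ with contralateral libraries (0.194 to 0.551) and for Tdt+ with Tdt- libraries (0.123 to 0.524). The labels do not say what a number marks. For Tdt- with contralateral libraries after LPS the lowest was 0.0741.

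All 7 members were named in each comparison; of the 9 lists (93 genes), those with the largest passing differences; and for each member the 5 genes with the highest r. Promoters came from a RefSeq table (GRCm38.p6), motifs were exact matches, and windows were aligned globally with Biopython 1.88. Figures were drawn with matplotlib 3.10.9.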

Additional observations from a re-analysis of the deposited data

Results flagged for a closer look

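Within groups of 4 or 5 libraries, 60 sets of values of a member were tested for a library far from the others by Dixon's test, and 13 had one. In 4 of the 13 every other library was listed at 0, so that the one value above 0 is set apart by construction; for values without such ties, chance gives about 1 in 20. The sets are not independent, since members share libraries. In each case the highest library was the one set apart.

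Day 3 replicate 1 of the time course accounts for 4 of them, with 3.68 TPM of Ms4a4b (next 0.6), 180 TPM of Ms4a6b (next 148), 187 TPM of Ms4a6c (next 101) and 328 TPM of Ms4a6d (next 250). In the same library the monocyte markers summed to 418 TPM. In the time course, further single libraries were Ms4a4a at 1.97 TPM in day 14 replicate 2, Ms4a4b at 1.17 TPM in day 14 replicate 3, Ms4a4c at 12.3 TPM in day 28 replicate 1 and Ms4a7 at 5.82 TPM in day 7 replicate 3.

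In the day 28 table, the single libraries were Ms4a4a at 3.92 TPM in contralateral replicate 2, Ms4a6c at 42.5 TPM in contralateral replicate 1, Ms4a7 at 2.72 TPM in contralateral replicate 4 and Ms4a4c at 18.7 TPM in Tdt- replicate 4. After LPS, Ms4a7 was at 0.32 TPM in contralateral replicate 4 and at 0 in the other contralateral libraries.

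The difference of Tdt+ from contralateral cells was larger after LPS than at day 28 without it for Ms4a6d, by 1.17 on the log2 scale, and for Ms4a7, by 2.59, both by the interaction test. Ms4a7 was listed at 0 in 11 of the 12 day 28 libraries and entered the test only through the injured cortex after LPS.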

How the results depend on the processing

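Alternatives changed the pseudocount, filter, normalization, variance trend, the samples in the fit and the replicate block, or left out libraries; leaving out the day 7 libraries numbered 1 was chosen after seeing the data. No called member changed direction. The counts of members that passed were unchanged under all of them at day 28, from day 3 to day 7 (4), from day 3 to day 28 (6) and from day 14 to day 28 (0). For Tdt+ against contralateral cells at day 7, where 0 passed, 1 passed with a minimum of 10 TPM (Ms4a4c), 1 with only the 2 groups compared (Ms4a6d), 2 without the 3 libraries numbered 1 and 4 with the replicate block, and 0 to 2 without 1 library. The numbers do not pair libraries at day 7, at day 28 or in the time course by the rule used; same-numbered libraries correlated best with each other in 8 of 9 pairs at day 7, 11 of 12 at day 28 and 6 of 27 in the time course, a hint from the data. After LPS, 4 members passed for Tdt+ against contralateral, where 0.896% of genes were called higher. Ms4a7 is among them, as in the main interaction count below, with the limit given above. The 4 became 2 with no filter on low values and 2 with no variance trend (Ms4a4c and Ms4a6d lost in both). Without 1 library they were 1 to 4. Ms4a4c was also lost with only the 2 groups compared and without the 3 libraries numbered 4, where Ms4a4a passed (adjusted p = 0.0195). With the replicate block 1 passed for Tdt+ against Tdt- and 3 for Tdt- against contralateral, both from 0. For the interaction of Tdt+ against contralateral, 2 became 1 with no filter, with a minimum of 10 TPM, with quantile normalization and with no variance trend, 4 with the block, and 1 to 3 without 1 library. For that of Tdt- against contralateral, 0 became 1 with the block. From day 7 to day 14, 0 became 0 to 1 without 1 library. The cause of these changes was not tested, except that Ms4a7 is not tested with a minimum of 10 TPM. Unknown depth limits what can be said of values near 0.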
